A study of Mus musculus with 12 samples.

Results

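The miRNAs that hepatocytes make in quantity were followed in small RNA from blood extracellular vesicles (bEVs), the membrane-bound particles that cells release into the circulation. They are mmu-miR-122-5p, mmu-miR-122-3p, mmu-miR-192-5p, mmu-miR-194-5p and mmu-miR-148a-3p, chosen by name and not by their values, although earlier results of these data were known. These miRNAs make 5 of the 1995 features in the count table, of which 1885 are miRNAs and 110 are piRNAs. The 12 libraries are of sera from male Rag1-/- mice on a C57BL/6 background, which lack mature T and B cells of their own in both groups. Of these libraries, 6 are from mice that received 10000000 T cells each, isolated from wild-type (WT) spleen and given by retro-orbital injection, and 6 are from mice that received medium. Mice were 6 weeks old at the transfer and 10 weeks old when serum was taken. The comparison asks whether the levels and the proportions of liver miRNAs differed between these groups.

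miR-122 is made almost only by hepatocytes, where it acts on lipid and cholesterol metabolism, and its plasma level is widely used as a sign of hepatocyte injury. miR-192 is transcribed together with Mir194-2 from a shared cluster, and miR-194 also comes from Mir194-1 beside Mir215. Both miR-192 and miR-194 are abundant in liver, gut and kidney epithelium. miR-148a is abundant in liver and acts there on lipid handling, but is also made by other cells, including lymphocytes. A miRNA hairpin carries a 5p and a 3p arm, and usually 1 of them is kept in Argonaute proteins while the other is degraded, so the ratio of arms describes which product was sampled.

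The mature sequences below are shown because the seed, bases 2 to 8 counted from the 5′ end and printed in capitals, is the part that pairs with targets, and because near-identical relatives can take each other's counts. They were taken from RefSeq with build GRCm38.p6 (the mm10 assembly). Relatives with the same seed and the other arms of the same hairpins are given with the members.
miR-192-5p: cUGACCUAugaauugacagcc
miR-215-5p: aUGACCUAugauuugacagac
miR-194-5p: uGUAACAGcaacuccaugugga
miR-148a-3p: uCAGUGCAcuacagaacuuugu
miR-148b-3p: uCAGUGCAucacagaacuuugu
miR-152-3p: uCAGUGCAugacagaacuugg
miR-148a-5p: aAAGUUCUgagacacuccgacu
miR-192-3p: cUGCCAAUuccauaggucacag
miR-194-1-3p: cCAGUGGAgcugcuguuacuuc
miR-194-2-3p: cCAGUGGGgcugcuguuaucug
miR-192-5p and miR-215-5p share the seed UGACCUA and differ at 3 of 21 bases, C1A, A12U and C20A (miR-192-5p base first, positions from the 5′ end). miR-148a-3p, miR-148b-3p and miR-152-3p share the seed CAGUGCA. Counted from miR-148a-3p, miR-148b-3p differs at 2 of 22 bases, C9U and U10C, and miR-152-3p at 3 of the 21 compared, C9U, U10G and U20G. An aligner could divide counts between such near-identical sequences, so the relatives are given beside the members. The seed of miR-194-5p, GUAACAG, belongs to 1 mature miRNA in the table.

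The genes of these miRNAs lie in short clusters. Mir194-2 (chr19:6264643-6264728, plus strand) ends 115 bases before Mir192 (chr19:6264844-6264932, plus strand), and no annotated gene overlaps either. Mir194-1 (chr1:185313319-185313385, plus strand) lies in an intron of 2010103J01Rik and, on the opposite strand, in an intron of Iars2, and it ends 195 bases before Mir215 (chr1:185313581-185313692), which is in an exon of 2010103J01Rik. Mir148a (chr6:51269812-51269910, minus strand) overlaps no annotated gene. The mature miR-194-5p is identical from both Mir194 genes, so its counts cannot be divided between them, while their 3p arms differ and were counted separately.

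Library totals were 75475 to 130106 counts (median 96740.5) with T cells and 48997 to 116048 (median 83470) with medium, and the median feature had 15 to 30 counts per library, so counting error is large for most features. Levels are given as CPM, counts relative to the TMM-scaled total of the library. TMM factors ran from 0.668 to 1.18 with T cells and from 0.974 to 1.32 with medium, so the choice of scaling moves every fold change. Counts of 1 to 9 are missing from T cell replicate 2 and from medium replicate 3. They are few in T cell replicate 6 (34 features), medium replicate 4 (61) and medium replicate 1 (87), against 471 in T cell replicate 5. A rare feature may thus be listed at 0 in such libraries, as miR-122-3p may be in T cell replicate 2. Intervals on shares cover counting error only.

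miR-122-5p, the guide arm of the hepatocyte miRNA, was the most abundant member. It had a mean count of 135 per library and ranked 59 among the 1995 features. The counts in T cell replicates 1 to 6 were 110, 220, 134, 204, 133 and 187, and those in medium replicates 1 to 6 were 106, 33, 167, 152, 67 and 112. As CPM the libraries had 1342 at the lowest, 1972 at the median and 2558 at the highest with T cells, against 479, 1183 and 1757 in the medium group (mean 1944 ± 447 against 1142 ± 477, SD, n = 6 each). In all, 4 T cell libraries lay above every medium library and 3 medium libraries lay below every T cell library, so the groups overlapped between 1342 and 1757. The lowest value, in medium replicate 2, was 479 CPM.

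**Figure D1:**
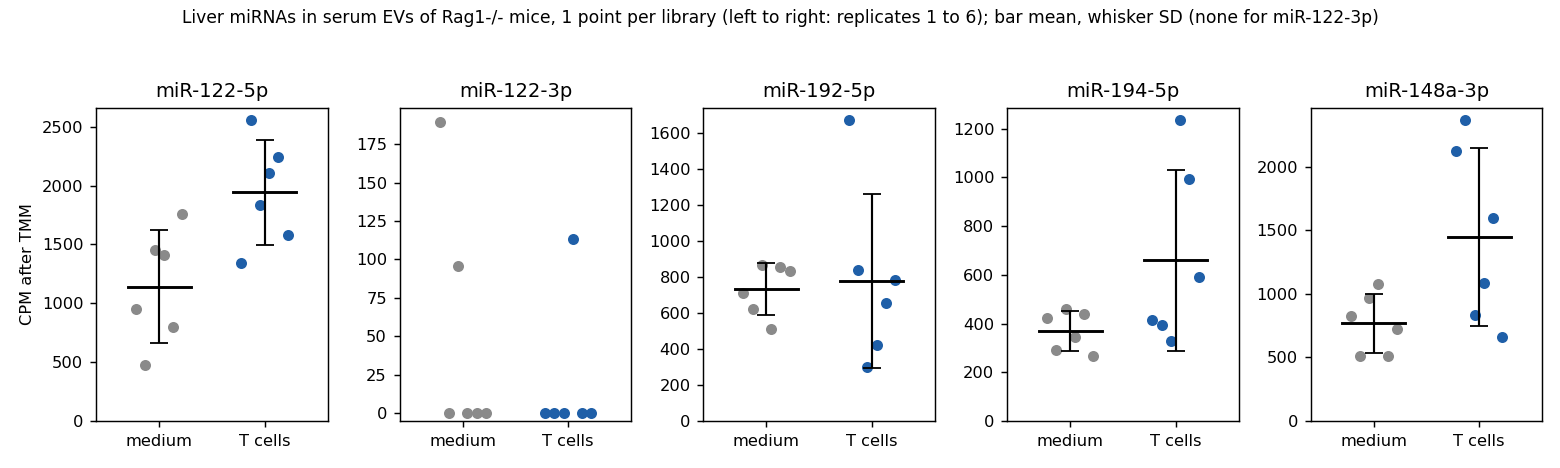
CPM after TMM scaling of the 5 liver miRNAs in each library (1 point each, replicates 1 to 6 from left to right), with the group mean and SD except for miR-122-3p. miR-122-5p and miR-148a-3p have 4 T cell libraries above all 6 medium libraries, the means of miR-192-5p are 779 and 734, and miR-122-3p is above 0 in 3 of the 12 libraries.

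miR-148a-3p came next among the members, with a mean count of 96.7 and rank 93. Its T cell counts were 174, 204, 61, 105, 95 and 78 in replicates 1 to 6, and its medium counts were 92, 35, 111, 116, 43 and 46. The CPM ran from 658 through a median of 1342 to 2372 in the T cell libraries, and from 508 through 775 to 1077 in the medium libraries (1446 ± 702 against 769 ± 233, SD, n = 6 each). T cell replicates 1 and 2 were highest, and 4 T cell libraries exceeded all medium libraries.

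miR-192-5p had a mean count of 67.2 and rank 174. The T cell libraries held 137, 72, 22, 41, 39 and 93 counts, and the medium libraries held 79, 43, 100, 55, 72 and 53. Its CPM was 302, 721 and 1671 (lowest, median, highest) after T cell transfer and 511, 771 and 868 after medium, with means of 779 ± 484 and 734 ± 145 (SD, n = 6 each). The coefficient of variation was 62.1% in the T cell group and 19.8% in the medium group, a difference that was not tested. A single library, T cell replicate 1, was above every medium library, and T cell replicate 3 was the lowest of all.

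miR-194-5p had a mean count of 46.0 and rank 346. Counts were 34, 34, 24, 120, 59 and 70 with T cells and 47, 20, 53, 37, 37 and 17 with medium. Its CPM was 329, 503 and 1237 (lowest, median, highest) in T cell libraries and 267, 383 and 460 in medium libraries (660 ± 371 against 371 ± 82.1, SD, n = 6 each). T cell replicate 4 was highest, and 3 T cell libraries lay above all medium libraries.

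miR-122-3p, the passenger arm, was listed in only 3 of the 12 libraries. Its counts were 11 in T cell replicate 4, 21 in medium replicate 1 and 11 in medium replicate 3, and 0 in the other 9 libraries (5 with T cells and 4 with medium). The mean count was 3.58, rank 1880 of 1995. As many zeros or more occur in 93 of the 1995 features (4.66%). All 4 other members exceeded the median feature in all 12 libraries, with miR-122-5p at 1.83 to 12.2 times and miR-194-5p at 1.06 to 4.80 times the median feature. Together the members made up 0.279% to 0.498% of counts with T cells (median 0.425%) and 0.204% to 0.465% with medium (median 0.343%).

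Within libraries the order of levels was miR-122-5p, miR-148a-3p, miR-192-5p, miR-194-5p. Relatives included, 12 pairs of features were compared by two-sided exact sign-flip permutation tests over 12 libraries with Benjamini-Hochberg adjustment over the 12 pairs. miR-122-5p exceeded miR-148a-3p in 10 of 12 libraries, at a geometric mean ratio of 1.44 (exact p = 0.0137, adjusted p = 0.0182). It exceeded miR-192-5p in 9 of 12 (ratio 2.02, exact p = 0.00586, adjusted p = 0.0100) and miR-194-5p in 12 of 12 (ratio 3.04, exact p = 0.000488, the smallest possible, adjusted p = 0.00117). The neighbours miR-148a-3p and miR-192-5p did not pass the threshold of 0.05 (ratio 1.40, higher in 8 of 12, exact p = 0.0552, adjusted p = 0.0602). Nor did miR-192-5p and miR-194-5p (ratio 1.51, higher in 9 of 12, exact p = 0.0620, adjusted p = 0.0620), with miR-192-5p the higher in 3 T cell and 6 medium libraries. Ligation and amplification differ between miRNA sequences, so these orders describe the libraries and not molecules per vesicle.

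miR-122 was sampled almost entirely as 5p: the 3p arm was 11 of 999 miR-122 counts with T cells (1.10%, exact Clopper-Pearson 95% interval 0.551% to 1.96%) and 32 of 669 with medium (4.78%, interval 3.29% to 6.69%). Over all libraries it was 43 of 1668 counts (2.58%, interval 1.87% to 3.46%). These shares rest on 3 libraries: the 3p arm was 5.12% in T cell replicate 4, 16.5% in medium replicate 1 and 6.18% in medium replicate 3. The intervals are of pooled counts and leave out the spread between libraries, so they do not compare the groups. The T cell total also includes 220 counts of 5p from T cell replicate 2, where a 3p count of 1 to 9 would not be listed. In 8 of the 9 libraries at 0, a limit of 3 counts would be a share of 1.6% to 9.09% of the total of each. No limit is given for T cell replicate 2, where counts of 1 to 9 are missing. The limits hold only where such counts could be listed. These counts are few in T cell replicate 6 (34 features) and medium replicate 4 (61 features), so the limits there may be too low. With 3p at 0 in most libraries, no fold between the arms is given for a single library.

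For miR-148a, the arm with the larger count was 5p: miR-148a-5p exceeded miR-148a-3p in 11 of 12 libraries (ratio 1.51, exact sign-flip permutation p = 0.0205, adjusted p = 0.0246). T cell replicate 2 was the exception, with 84 counts of 5p and 204 of 3p. For miR-192 the 5p arm was higher in 12 of 12 libraries (ratio 2.21). miR-194-5p exceeded the Mir194-1 3p arm in 11 of 12 (ratio 2.63) and the Mir194-2 3p arm in 12 of 12 (ratio 4.31). The ratio of 4.31 includes T cell replicate 2, with 34 counts of miR-194-5p and 0 of miR-194-2-3p. Counts of 1 to 9 are missing from that library, so the size of this ratio rests partly on the 0.5 added to each count. The 3p arms of miR-194 were low: miR-194-1-3p lay above the median feature in 3 libraries and miR-194-2-3p in 0.

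**Figure D2:**
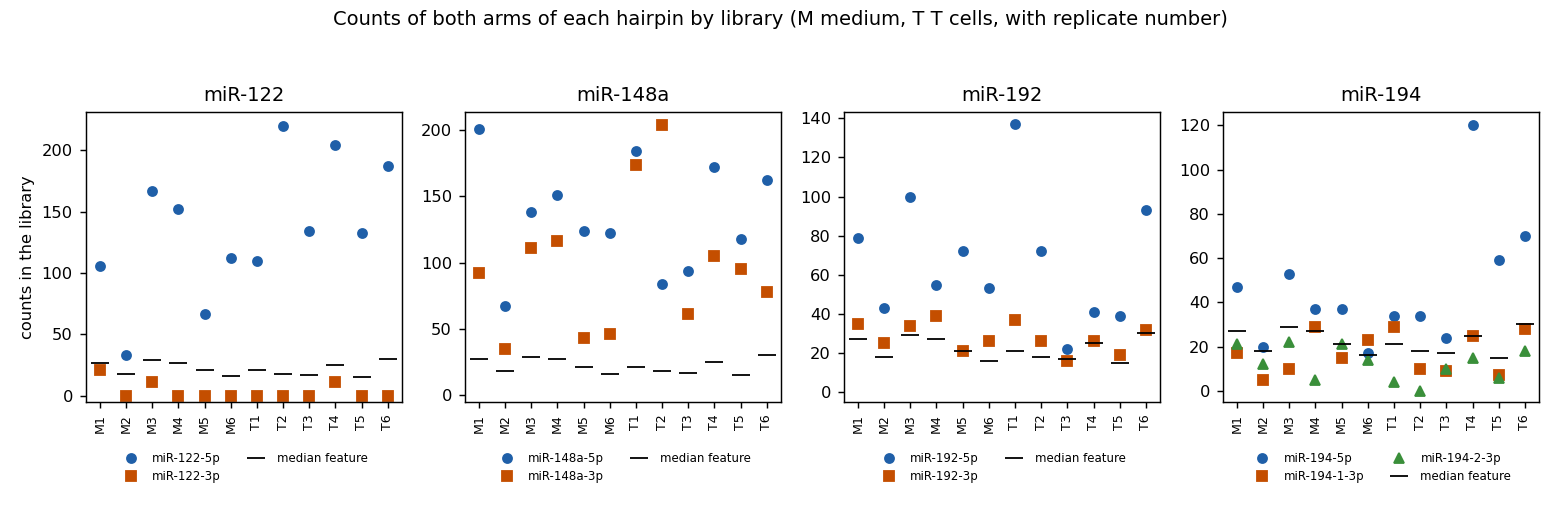
Counts of both arms of the miR-122, miR-148a, miR-192 and miR-194 hairpins in each library (M medium, T T cells, with the replicate number), with the median feature of the library as a dash. The 5p arms of miR-122 and miR-192 are above the 3p arms in all 12 libraries, whereas miR-148a-5p is above miR-148a-3p in 11 of 12 and T cell replicate 2 reverses their order.

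The relatives with the same seed were less abundant. miR-192-5p was 3.06 times miR-215-5p and miR-148a-3p was 3.34 times miR-152-3p, each higher in 12 of 12 libraries. miR-148a-3p was 1.48 times miR-148b-3p, higher in 10 of 12 (exact sign-flip permutation p = 0.0117, adjusted p = 0.0176). The counts of miR-148b-3p were 82, 85, 69, 65, 84 and 71 with T cells and 46, 51, 57, 78, 40 and 16 with medium.

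The T cell and medium libraries were then compared with edgeR's quasi-likelihood test on counts, adjusted by Benjamini-Hochberg over 1720 features that passed the filter on low counts. No feature passed an adjusted p of 0.05 (0% called), and 120 (6.98%) had an unadjusted p under 0.05 (either direction; lowest adjusted p 0.204). Of the members, 4 of 5 were tested (miR-122-3p did not pass the filter), and 0 passed the adjusted threshold. In edgeR, 3 of the 4 were among the features with an unadjusted p under 0.05, all 3 higher in the T cell group. The planned exact permutation test of mean log2 CPM gave unadjusted p = 0.0195 for miR-122-5p and 0.0476 for miR-148a-3p. By that test p was 0.0823 for miR-194-5p, 0.801 for miR-192-5p and 0.483 for miR-122-3p. Among features with at least 50 counts in 6 libraries, 68 of 307 had an unadjusted edgeR p under 0.05. Scaled to total counts or to the abundant miRNAs, none of the 3 members was under 0.05 (values below). After TMM, miR-122-5p had a log2 fold change of 0.77 (T cells over medium, SE 0.29, 95% interval 0.15 to 1.38, edgeR adjusted p = 0.435). For miR-148a-3p the log2 fold change was 0.90 (SE 0.32, interval 0.23 to 1.57, edgeR adjusted p = 0.370), and for miR-194-5p it was 0.82 (SE 0.32, interval 0.14 to 1.5, edgeR adjusted p = 0.520). miR-192-5p was at 0.09 (SE 0.33, interval -0.60 to 0.77, edgeR adjusted p = 0.990). DESeq2, the tool of the study's methods, gave adjusted p-values for 561 features and called 44 of them (7.84%). Here too 0 of the 4 members passed, at adjusted p = 0.0870 for miR-122-5p (log2 fold change 0.75), 0.0540 for miR-148a-3p (0.90), 0.0996 for miR-194-5p (0.80) and 0.922 for miR-192-5p (0.07). None of these differences passed the threshold, and the intervals do not show that the levels are equal either.

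The size of the fold change moved with the scaling. The median of all features tested lay at -0.05 on the log2 scale after TMM, at -0.38 when scaled to total counts and at -0.60 when scaled to the abundant miRNAs. miR-122-5p was at 0.77, 0.36 and 0.12 under these scalings, miR-148a-3p at 0.90, 0.49 and 0.28, and miR-194-5p at 0.82, 0.50 and 0.29. They were above the median of all features under all 3 scalings, but that median is set mostly by features of low count. With total counts their unadjusted edgeR p was 0.254, 0.116 and 0.175, in the same order. Scaled to the abundant miRNAs it was 0.716, 0.372 and 0.452. miR-192-5p was at 0.09, -0.27 and -0.49, which is close to the median and negative under both other scalings. The value for miR-194-5p rests partly on T cell replicate 4: without it the log2 fold change was 0.53 (edgeR adjusted p = 0.841). For miR-192-5p the sign rests on T cell replicate 1, without which it was -0.28.

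**Figure D3:**
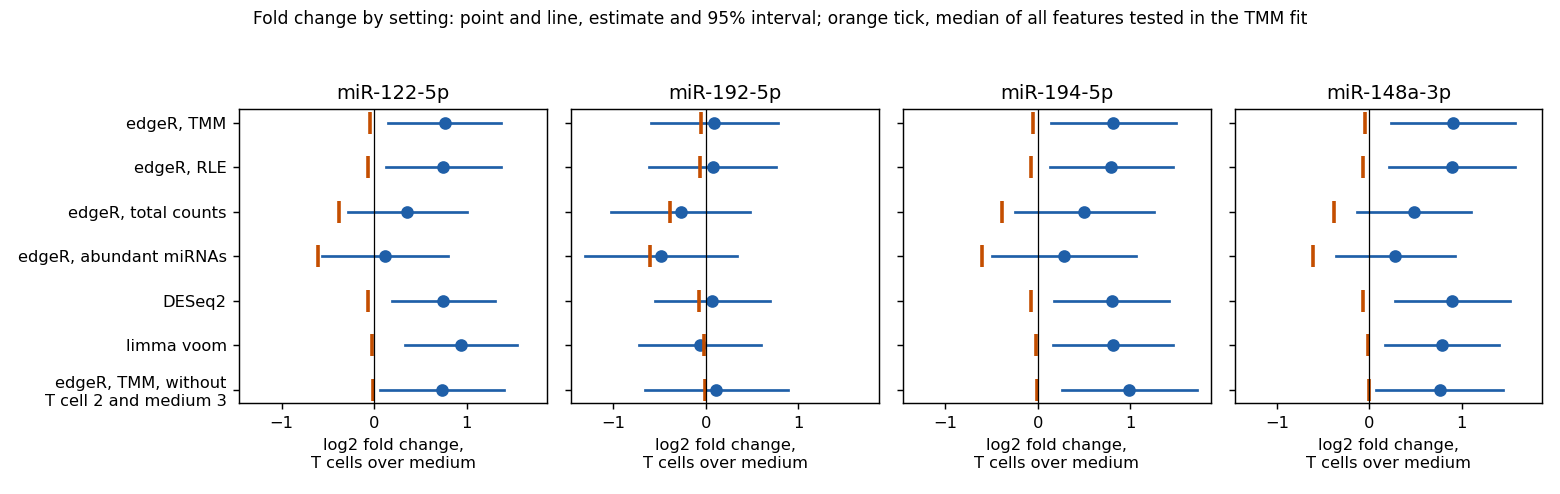
Log2 fold change of 4 liver miRNAs, T cells over medium, with its 95% interval under 7 settings of scaling and test, and the median of the features in the TMM fit as an orange tick. miR-122-5p, miR-148a-3p and miR-194-5p lie right of the tick in each setting shown, from 0.12 to 0.99 on the log2 scale. The estimate for miR-192-5p runs from -0.49 to 0.11 and lies left of the tick in limma voom (-0.063 against -0.018). Scaled to total counts or to the abundant miRNAs, the intervals of all 4 include 0.

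miR-148b-3p, which shares its seed with miR-148a-3p, was at 0.84 (SE 0.28, edgeR adjusted p = 0.358) and passed in DESeq2 (adjusted p = 0.0423). miR-148a-5p, from the same hairpin as miR-148a-3p, was at 0.13 (edgeR adjusted p = 0.990), at 1607 ± 477 CPM against 1462 ± 357 CPM in the medium group (SD, n = 6 each). miR-152-3p was at -0.22, miR-192-3p at -0.12, miR-194-1-3p at 0.12, miR-194-2-3p at -0.83, miR-215-5p at 0.23 and miR-215-3p at -0.39, and none of these had an unadjusted p under 0.05 in edgeR.

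Ratios within a library do not depend on the scaling. The log2 ratio of miR-122-5p to miR-192-5p was 1.49 ± 1.04 in the T cell libraries against 0.53 ± 0.70 in the medium libraries (SD, n = 6 each), a difference of 0.95 with 4 T cell libraries above every medium library (two-sided exact permutation test over all arrangements of the libraries, p = 0.0887, adjusted p = 0.248 over 4 ratios). Without T cell replicate 1, which has the lowest T cell ratio, the difference was 1.31 (exact permutation p = 0.0130, unadjusted). That was the lowest p with a single library left out: differences ran from 0.74 to 1.31, with exact permutation p up to 0.175. The log2 ratio of miR-192-5p to miR-194-5p was 0.20 ± 1.25 in T cell libraries and 0.98 ± 0.36 in medium libraries, lower in 4 T cell libraries than in every medium library and higher in 1 (difference -0.77, exact permutation p = 0.186, adjusted p = 0.248). Without T cell replicate 1 it was -1.13 (exact permutation p = 0.0216, unadjusted), and without T cell replicate 4 it was -0.43 (exact permutation p = 0.368, unadjusted). miR-122-5p to miR-148a-3p was 0.55 ± 0.73 against 0.50 ± 0.46 (difference 0.04, exact permutation p = 0.905, adjusted p = 0.905), and miR-122-5p to miR-122-3p, with 0.5 added to each count, was 7.57 ± 1.71 against 5.90 ± 2.35 (difference 1.67, exact permutation p = 0.184, adjusted p = 0.248). None of the 4 passed. In the 9 libraries with 0 counts of miR-122-3p, that ratio is set by the 5p count and the added 0.5. Its difference was 1.02 without T cell replicate 2 and medium replicate 3 (exact permutation p = 0.50) and 0.95 without medium replicate 1 (exact permutation p = 0.379), both unadjusted.

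Ratios of arms were added after the values had been seen. miR-148a-3p to miR-148a-5p was -0.25 ± 0.82 in T cell libraries and -0.94 ± 0.51 in medium libraries (difference 0.69, exact permutation p = 0.0931, adjusted p = 0.140 over 3 ratios), with 3 T cell libraries above every medium library. miR-194-5p to the sum of both miR-194 3p arms was 1.07 ± 0.85 against 0.05 ± 0.61 (difference 1.02, exact permutation p = 0.0519, adjusted p = 0.140), and medium replicate 6 was the lowest at -1.10. miR-192-5p to miR-192-3p was 1.16 ± 0.55 against 1.12 ± 0.47 (difference 0.04, exact permutation p = 0.903, adjusted p = 0.903).

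**Figure D4:**
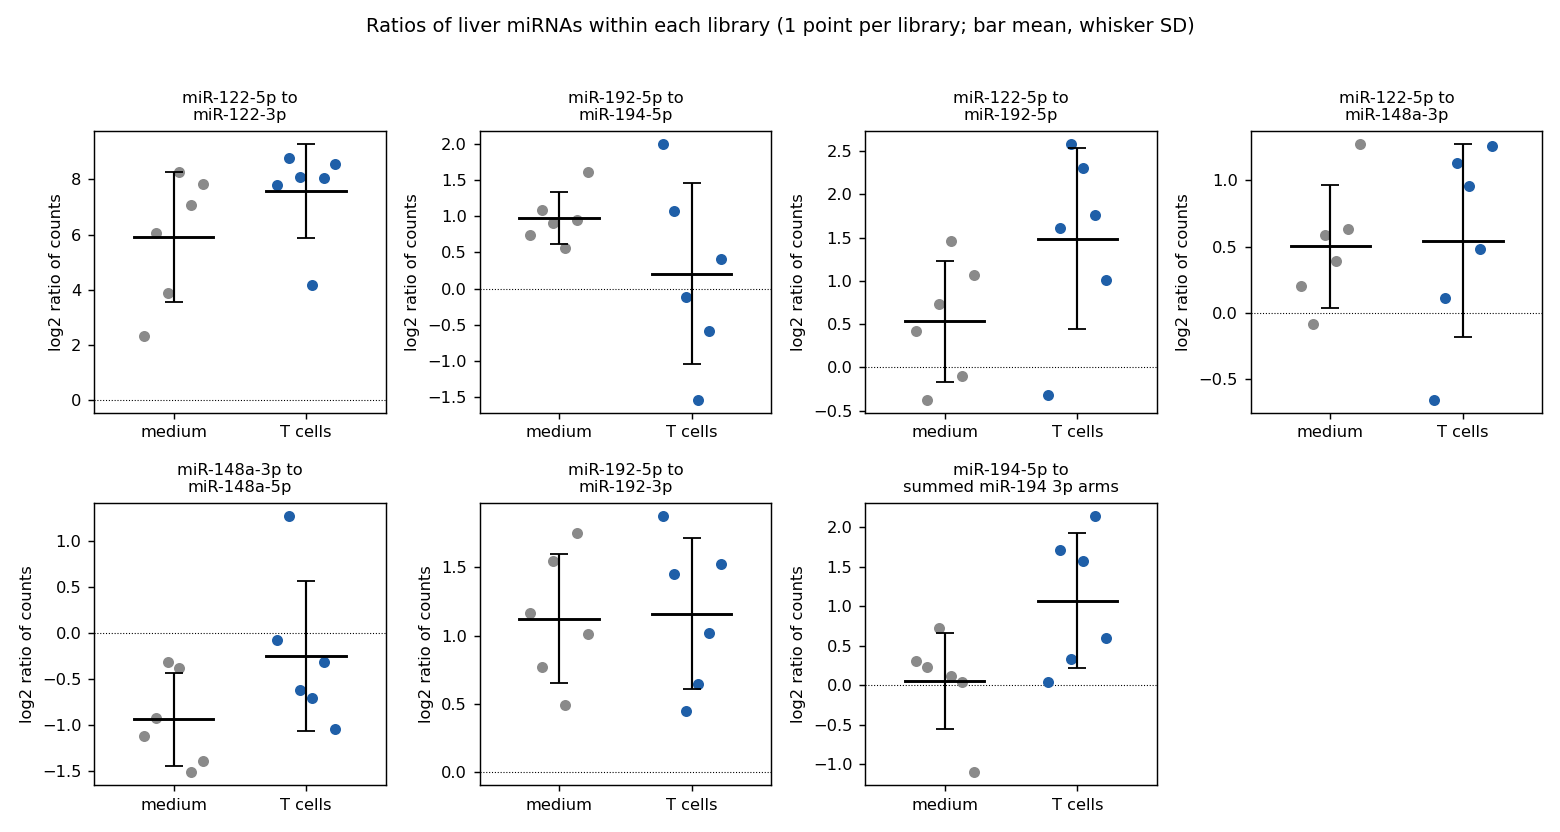
Log2 ratios of liver miRNA counts within each library (1 point each) with the group mean and SD. For miR-122-5p to miR-192-5p 4 T cell points lie above all medium points, and for miR-192-5p to miR-194-5p 4 lie below, whereas miR-122-5p to miR-148a-3p and miR-192-5p to miR-192-3p overlap widely between the groups.

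Co-variation between members was then measured from library to library. After each group's mean was removed from log2 CPM, miR-122-5p and miR-148a-3p had the highest correlation of 7 pairs over 12 libraries (Pearson r = 0.45, permutation p = 0.0945, adjusted p = 0.661; Spearman rho = 0.43, permutation p = 0.137, adjusted p = 0.666). Without the 2 libraries farthest from the median of miR-122-5p, medium replicates 2 and 6, r was 0.45. It was 0.27 within T cells and 0.75 within medium (exact permutation p = 0.10), and without T cell replicate 1 it was 0.66 over the other libraries (permutation p = 0.00501, unadjusted). That was the lowest p with a single library left out: r ran from 0.35 to 0.66, with permutation p up to 0.265. miR-192-5p and miR-148a-3p followed at r = 0.42 (permutation p = 0.295, adjusted p = 0.866; rho = 0.48, permutation p = 0.190), but r was 0.01 without T cell replicates 1 and 3, so the relation rests on those libraries. The pair with a shared cluster, miR-192-5p and miR-194-5p, gave r = -0.12 (permutation p = 0.777, adjusted p = 0.866, rho = -0.13), but counts of miR-194-5p also come from Mir194-1 on another chromosome. miR-122-5p gave r = -0.12 with miR-192-5p (permutation p = 0.614), 0.12 with miR-194-5p (permutation p = 0.629) and 0.17 with its own 3p arm (permutation p = 0.657), and miR-194-5p with miR-148a-3p gave -0.06 (permutation p = 0.866). None of the 7 passed after adjustment.

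**Figure D5:**
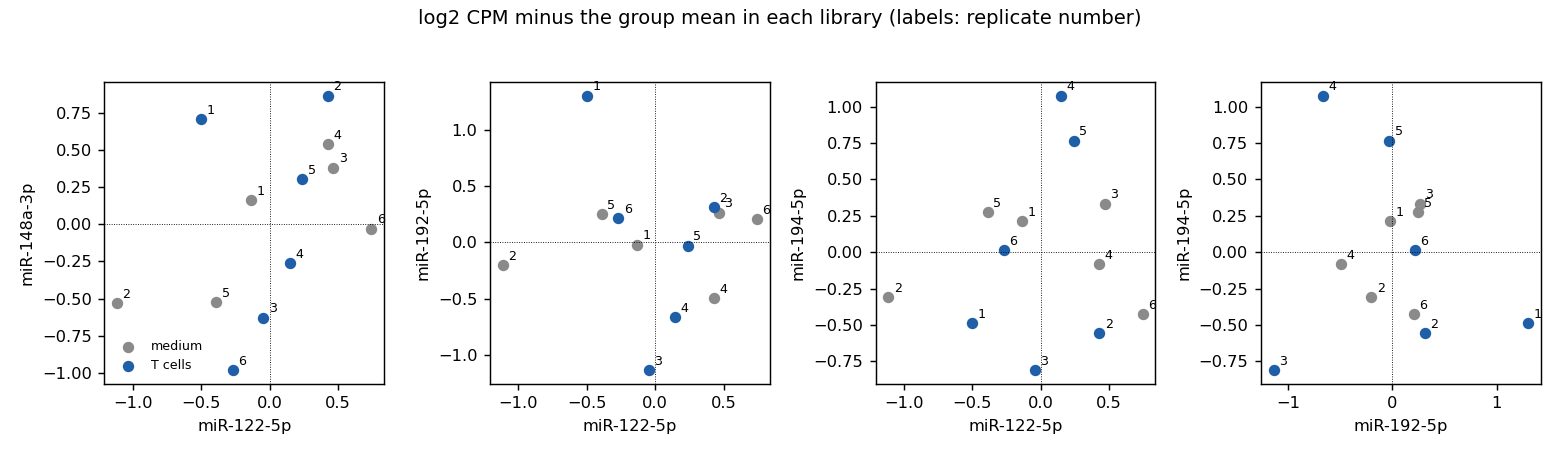
Log2 CPM minus the group mean, plotted for 4 pairs of liver miRNAs, with replicate numbers. miR-122-5p and miR-148a-3p lean upward (r = 0.45), while miR-192-5p and miR-194-5p, of which Mir192 and Mir194-2 share a cluster in the genome, show no common direction (r = -0.12), with T cell replicate 1 at the far right.

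Among the features with a mean count of at least 50, the members were not each other's nearest. By the same measure, which is a description over 12 libraries that share depth and scaling, the features most like miR-122-5p were miR-125a-5p (r = 0.77), piR_034616 (0.75), miR-201-3p (0.72), miR-92b-5p (0.71) and miR-6946-3p (0.70), and miR-148a-3p took place 27 of 304, while miR-192-5p correlated at -0.12. miR-148a-3p was most like let-7e-5p (0.84), let-7b-5p (0.75), let-7b-3p (0.74), miR-203-3p (0.73) and let-7c-5p (0.73). Scaled to total counts, its r with these 5 was lower, at 0.54 to 0.73. miR-192-5p was most like miR-598-3p (0.65), miR-7675-3p (0.64), miR-7662-3p (0.64), miR-3060-3p (0.63) and miR-370-3p (0.59). For miR-194-5p the nearest were let-7d-3p (0.78), miR-1927 (0.77), miR-7680-5p (0.76), let-7a-2-3p (0.75) and miR-325-3p (0.70).

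The other hepatocyte and blood cell lists gave a background to these values. Of 8 further miRNAs with roles in hepatocyte metabolism, all 8 were tested, with a median log2 fold change of 0.13, or -0.22 when scaled to total counts. edgeR called 0, and 2 had an unadjusted p under 0.05 (6.98% of all tested features did). The 2 were miR-101a-3p (1.40, SE 0.50, edgeR adjusted p = 0.370) and miR-101b-3p (0.82, SE 0.36, edgeR adjusted p = 0.630), while miR-802-5p was at 0.13 and miR-378a-3p at 0.59. Over the 4 members tested the median was 0.79 (0.42 with total counts).

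The lists named for blood cells also had positive medians. For scale, 6.98% of all tested features had an unadjusted p under 0.05 in edgeR, and DESeq2 called 7.84%. Among features with at least 50 counts in 6 libraries, 68 of 307 had an unadjusted edgeR p under 0.05. The 8 miRNAs listed as erythroid had a median log2 fold change of 0.99, or 0.53 with total counts (3 with an unadjusted p under 0.05, edgeR called 0). Their summed level was 42776 to 372208 CPM with T cells and 30354 to 150109 CPM with medium. By mean count miR-16-5p, miR-486b-5p, miR-486a-5p and miR-25-3p led this list. The 7 miRNAs listed as platelet and myeloid had a median of 0.96, or 0.58 with total counts (4 with an unadjusted p under 0.05, edgeR called 0, DESeq2 called 3). Their summed levels were 32917 to 98499 CPM with T cells and 14118 to 40276 CPM with medium. By mean count miR-126a-3p, miR-142a-3p, miR-191-5p and miR-21a-5p led this list. Which cells released the miRNAs of either list, donor T cells included, was not tested. No miRNA of either list was at 0 in any library, and the summed liver members were 3309 to 6162 CPM with T cells and 1902 to 3838 CPM with medium. The part of blood cell miRNAs in the members' values was not tested. Lists for gut and kidney epithelium (7 tested, median 0.15), pancreas (3 of 4 tested, -0.21) and muscle (5 tested, -0.15) had 0 members with an unadjusted p under 0.05. In serum vesicles, fewer vesicles of a tissue and less RNA per vesicle cannot be told apart.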

How the data were processed

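The authors enriched bEVs from fresh sera by differential ultracentrifugation, extracted small RNA with the miRNeasy kit, prepared UMI libraries with a Qiagen kit and sequenced 75-base single ends. The submitters' processing notes name bcl2fastq 2.18.0.12. The reads were trimmed and aligned to miRBase 21 and mm10 in GeneGlobe. The deposited table holds whole-number counts, 1 column per library, which the authors did not normalize; whether these are reads or UMIs is not stated there. In the table, 12 names merge miRNAs and were kept as 1 feature each.

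Features were filtered by filterByExpr (1720 of 1995 kept), scaled by TMM and tested with edgeR 4.0.16 (quasi-likelihood) in R 4.3.3, adjusted over all tested features. DESeq2 1.42.0 and limma 3.58.1 voom were alternatives. Ratios (0.5 added to counts) and correlations used permutation tests (100000 resamples, or exact) in Python 3.11.15 with scipy 1.17.1. Named features were the members, their other arms and seed relatives, the 5 features most like each member and up to 4 abundant members of a list. Alternatives were other scalings, filters, the replicate block and each library left out. The procedures were tested on simulated data. The members and lists were chosen with earlier results of these data known. The tests take the library as the unit, so their p-values are set against the variation between these libraries.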

Additional observations from a re-analysis of the deposited data

Results flagged for a closer look

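In 26 sets of 6 libraries, a single library far from the others was looked for with Dixon's ratio, and 3 sets passed the critical value. For values with a normal distribution, chance flags about 1 in 20 such sets. That rate does not apply to miR-122-3p, which is at 0 in most libraries. For miR-122-3p, T cell replicate 4 had 113 CPM while the other 5 T cell libraries were at 0. In consequence its log2 ratio of miR-122-5p to miR-122-3p was 4.15, against 7.79 for the nearest T cell library, so these 2 flags rest on the same 11 counts. The log2 ratio of miR-194-5p to the summed miR-194 3p arms was -1.10 in medium replicate 6, and the nearest medium library was at 0.04. That library held 17 counts of miR-194-5p, 23 of miR-194-1-3p and 14 of miR-194-2-3p.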

How the results depend on the processing

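The count of called features was 0 in edgeR and limma voom under every setting tried, but 44 in DESeq2 and 18 in DESeq2 without its filters. miR-122-5p, miR-148a-3p and miR-194-5p kept their direction and did not pass in any alternative, with log2 fold changes of 0.12 to 0.94, 0.28 to 1.05 and 0.29 to 0.99. With libraries left out in turn they were 0.61 to 0.93, 0.69 to 1.05 and 0.53 to 0.96, and miR-192-5p was -0.28 to 0.26. miR-192-5p turned to -0.063 in limma voom, -0.27 with total counts, -0.49 when scaled to abundant miRNAs and -0.026 with at least 50 counts in 6 libraries. miR-122-3p could not be fitted under the main filter, nor miR-194-5p under the strict one.

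With a pseudocount of 5 the miR-122 arm difference was 1.13 (exact permutation p = 0.0498), and without T cell replicate 2 and medium replicate 3 the miR-194 and miR-122 arm differences were both 1.02 (exact permutation p = 0.0476 and 0.50). Leaving libraries out in turn gave differences of 0.95 to 2.35 (miR-122 arms), -1.13 to -0.43 (miR-192-5p to miR-194-5p), 0.74 to 1.31 (miR-122-5p to miR-192-5p), -0.10 to 0.29 (miR-122-5p to miR-148a-3p), 0.39 to 0.85 (miR-148a arms), -0.10 to 0.18 (miR-192 arms) and 0.78 to 1.22 (miR-194 arms). The miR-122 arm value of 2.35 (exact permutation p = 0.0476) was without T cell replicate 4, and 0.85 for miR-148a (exact permutation p = 0.0455) was without T cell replicate 6. The miR-194 arm difference was 1.22, 1.16 and 1.15 without T cell replicate 1, T cell replicate 3 and medium replicate 3 (exact permutation p = 0.0173, 0.0346 and 0.0346); these p-values are unadjusted. The difference of miR-122-5p to miR-148a-3p turned negative when a single library was dropped (T cell replicates 3, 4, 6, medium replicates 1, 2), as did the miR-192 arms (T cell replicates 1, 2, 6, medium replicates 2, 4).

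Correlations over left-out libraries were 0.02 to 0.30 (miR-122-5p with 3p), -0.29 to 0.15 (with miR-192-5p), -0.012 to 0.28 (with miR-194-5p), 0.35 to 0.66 (with miR-148a-3p), -0.60 to 0.15 (miR-192-5p with miR-194-5p), 0.22 to 0.59 (with miR-148a-3p) and -0.28 to 0.12 (miR-194-5p with miR-148a-3p). Leaving out T cell replicate 1, 2 or 4 or medium replicate 2 turned the sign of at least 1 pair. Without centring by group they were -0.014 for the miR-122 arms, 0.66 for miR-122-5p with miR-148a-3p and 0.27 for miR-194-5p with miR-148a-3p. With total counts miR-122-5p and miR-192-5p gave 0.0056 and miR-192-5p and miR-194-5p gave 0.072. Within medium alone these pairs gave 0.19 and 0.34, miR-192-5p with miR-148a-3p gave -0.29 and miR-194-5p with miR-148a-3p gave 0.20, or 0.069 over all libraries but T cell replicate 2 and medium replicate 3 (miR-122-5p with miR-148a-3p, 0.33).. The causes were not tested.

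The replicate numbers share only a number: same-numbered libraries correlated at -0.21 to 0.08, 0 of 6 over 0.1, and 1 of 6 T cell libraries correlated best with its own number. With the replicate block edgeR called 0 features, and the log2 fold changes were 0.82 for miR-122-5p, 0.80 for miR-148a-3p, 0.70 for miR-194-5p and -0.071 for miR-192-5p.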
